A study of Mus musculus with 4 samples.

Results

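Of the 3812 intervals at which the authors' comparison found chromatin accessibility to differ between control and methyl-β-cyclodextrin (MCD)-treated RAW macrophages, 23 lay nearest to a transcription start site (TSS) of 1 of 2 adhesion receptor genes, 11 at Cd44 and 12 at Itga4. Both genes are on mouse chromosome 2 (GRCm38). At Cd44 every one of the 11 intervals was more accessible after MCD, and at Itga4 every one of the 12 was less accessible. An interval counted as a member when the nearest TSS, among GENCODE M21 basic transcripts with an Entrez identifier, was a TSS of that gene. The members were thus selected from intervals that already passed the authors' comparison of the same samples, so their number and direction are a description of the table and carry no test.

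CD44 is a transmembrane receptor for hyaluronan, a sugar polymer of the extracellular matrix. Its gene holds a block of variable exons that are spliced in or out of the part of the protein outside the cell, and its cytoplasmic tail is linked to actin by ezrin, radixin and moesin. Itga4 encodes the integrin α4 chain, which pairs with integrin β1 or β7 and binds VCAM-1, fibronectin and, with β7, MAdCAM-1. Both receptors let leukocytes, macrophages included, hold on to matrix and to other cells.

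Accessibility was measured by ATAC-seq, in which the Tn5 transposase cuts DNA where chromatin is open, and a site that yields more reads was the more accessible one. RAW macrophages are a mouse macrophage-like cell line, whose number has its digits ordered differently in the labels and in the study, and were grown in both conditions in DMEM with serum. Control cells had no treatment by their labels. MCD cells had 5 mM of the cyclic sugar, which draws cholesterol out of membranes, for 1 hour with bovine serum albumin. The study's general culture methods prepare treatments in albumin medium and give water as the negative control. Its ATAC-seq methods call the control cells untreated, so whether these also had albumin medium is not certain. Each condition had 2 libraries of 50000 cells, from 1 cell line, and the labels do not say whether the 2 came from separate cultures.

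For each interval, 201 bp wide, the table used here holds 1 log2 mean of normalized reads for each condition. These are the authors' means over the 2 libraries, and they are given below as reads and, for the difference between MCD and control, on the log2 scale. No value per library was used, so no spread between replicates accompanies them and the depth of the libraries is unknown from the table. Because all intervals have the same width, width does not add to differences in level between them. Other differences between sites, such as repeat content, were not adjusted for here. In what follows an interval is called gained where the MCD mean was above the control mean and lost where it was below. Intervals are numbered along the chromosome, which for Cd44, on the minus strand, runs from the 3′ end of the gene towards its start.

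The reference sequences of 8 of the 23 intervals are shown because these intervals hold motif matches or large differences described below. The sequences were read from the GRCm38.p6 genome of RefSeq, 5′ to 3′ on the plus strand of chromosome 2. Capitals mark matches to 4 of the 12 consensus motifs that were searched on both strands, namely AP-1 (TGACTCA), the κB site, the PU box (GAGGAA) and RUNX (TGTGGT), and a match on the minus strand appears as its reverse complement. The Cd44 intervals are interval 5 (chr2:102831621-102831821) and interval 6 (chr2:102833059-102833259), among the variable exons, interval 8 (chr2:102873408-102873608), in the first intron, and interval 11 (chr2:102981449-102981649), upstream of the gene.
Cd44 interval 5: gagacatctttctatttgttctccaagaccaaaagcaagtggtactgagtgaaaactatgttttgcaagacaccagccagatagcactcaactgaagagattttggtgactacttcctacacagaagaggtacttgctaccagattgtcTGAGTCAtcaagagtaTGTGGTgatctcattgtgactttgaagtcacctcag
Cd44 interval 6: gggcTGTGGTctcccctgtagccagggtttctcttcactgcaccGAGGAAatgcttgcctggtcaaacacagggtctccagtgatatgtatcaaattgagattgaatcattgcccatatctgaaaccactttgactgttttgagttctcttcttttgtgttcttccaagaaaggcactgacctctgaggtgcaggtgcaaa
Cd44 interval 8: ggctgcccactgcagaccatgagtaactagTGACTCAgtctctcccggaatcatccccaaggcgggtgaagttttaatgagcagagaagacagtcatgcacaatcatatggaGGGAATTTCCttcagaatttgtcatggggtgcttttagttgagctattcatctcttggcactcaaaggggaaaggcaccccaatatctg
Cd44 interval 11: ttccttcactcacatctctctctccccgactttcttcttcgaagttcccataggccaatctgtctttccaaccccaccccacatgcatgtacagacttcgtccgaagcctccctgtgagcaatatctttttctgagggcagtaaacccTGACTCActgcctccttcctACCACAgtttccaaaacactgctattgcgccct
The Itga4 intervals are interval 2 (chr2:79089970-79090170), far upstream, interval 5 (chr2:79276430-79276630) and interval 7 (chr2:79306346-79306546), in introns, and interval 10 (chr2:79335090-79335290), past the 3′ end of the gene. Interval 7 holds none of the 4 motifs and so has no capitals.
Itga4 interval 2: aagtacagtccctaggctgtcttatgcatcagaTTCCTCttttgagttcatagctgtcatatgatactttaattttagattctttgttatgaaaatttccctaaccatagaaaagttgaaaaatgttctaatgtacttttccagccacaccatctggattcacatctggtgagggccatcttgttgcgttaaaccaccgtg
Itga4 interval 5: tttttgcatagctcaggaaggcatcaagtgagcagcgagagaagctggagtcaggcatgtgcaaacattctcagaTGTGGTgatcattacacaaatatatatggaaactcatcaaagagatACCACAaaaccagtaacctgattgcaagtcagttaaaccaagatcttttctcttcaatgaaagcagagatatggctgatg
Itga4 interval 7: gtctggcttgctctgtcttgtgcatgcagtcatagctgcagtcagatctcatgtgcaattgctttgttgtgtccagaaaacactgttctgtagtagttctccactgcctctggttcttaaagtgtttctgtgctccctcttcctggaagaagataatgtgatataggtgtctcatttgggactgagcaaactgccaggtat
Itga4 interval 10: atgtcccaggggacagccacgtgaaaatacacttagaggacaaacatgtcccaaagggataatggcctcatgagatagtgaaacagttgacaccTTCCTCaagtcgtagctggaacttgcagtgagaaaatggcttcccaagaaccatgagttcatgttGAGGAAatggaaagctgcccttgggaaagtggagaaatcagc

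Cd44 (ENSMUSG00000005087.17) runs over 90525 bp on the minus strand (chr2:102811141-102901665), and its longest annotated splice form, ENSMUST00000005218.14, has 19 exons. Its 11 intervals were spread over 171525 bp. Of these, 7 lay in introns, 1 lay just past the 3′ end and 3 lay upstream of the start, and 0 of the 11 overlapped an annotated exon. None was at the promoter, since the interval closest to a Cd44 TSS was 27738 bp away and the farthest was 91021 bp away. For comparison, 10.8% of all gained and 7.83% of all lost intervals were within 3 kb of a TSS. The next table rows on the chromosome belonged to Fjx1 on one side, 358254 bp away, and to Abtb2 on the other, 674260 bp away, and both were gained, with differences of 1.13 and 1.04. No row assigned to another gene lay inside the stretch.

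Within the gene, the intervals fell in a group near the 3′ end and a pair in the first intron. Interval 6, in intron 13, had the largest difference of the gene, from a mean of 4.31 reads in control to 31.2 after MCD, a 7.25-fold rise (2.86 on the log2 scale). That placed it at rank 31 by difference among the 2790 gained intervals, and only 0.215% of gained intervals had a lower control mean. Its neighbour 1237 bp away, interval 5 in intron 14, started higher and changed less, from 24.1 to 63.3 reads (difference 1.39). Introns 13 and 14 separate variable exons of the long form. In the 9-exon form ENSMUST00000099673.8 both intervals fall inside 1 intron of 24404 bp, intron 5, so that the pair sits within the part of the gene that this shorter form splices out.

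Downstream of the variable exons, interval 4 in intron 16 had 6.63 reads in control and 30.1 after MCD (difference 2.18). Interval 3 rose from 9.97 to 33.2 reads (difference 1.74) and interval 2 from 5.49 to 32.2 reads (difference 2.55). These last are 2211 bp apart in intron 18, the final intron, which is 7870 bp long. Interval 1 lies beyond the last exon (chr2:102810125-102810325), between Cd44 and the end of Slc1a2, a glutamate transporter gene, and went from 11.6 to 44.8 reads (difference 1.96). All 4 of these intervals thus began below 12 reads and ended above 30 reads.

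The first intron of Cd44 is 35821 bp long in every annotated form in which the pair there is intronic. Interval 8 went from 15.9 to 82.3 reads, a 5.18-fold rise (difference 2.37), the highest MCD mean inside the gene. Interval 7, 3044 bp further into the gene, went from 11.6 to 36.7 reads (difference 1.66).

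The intervals upstream of Cd44 were intergenic. Interval 10, 77604 bp before the TSS, had 47.2 reads in control and 96.9 after MCD (difference 1.04), and interval 11, 79784 bp before it, had 59.0 and 135 reads (difference 1.19). This pair, 1979 bp apart, had the highest control means of the 11 intervals, the highest MCD means and the smallest differences. Interval 9, 57746 bp before the TSS, resembled the intronic intervals in level, with 8.34 reads in control and 30.7 after MCD (difference 1.88). The next nearest gene for these 3 intervals was Pdhx, which encodes a subunit of the pyruvate dehydrogenase complex, with a start 91813 to 113851 bp away.

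**Figure D1:**
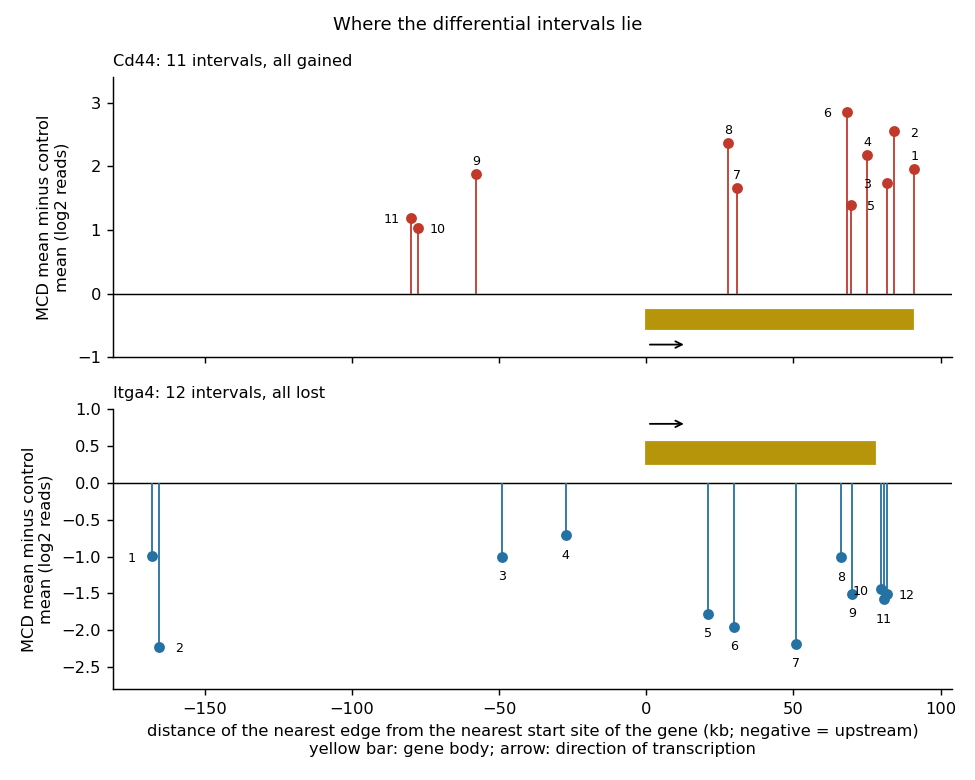
Difference between the MCD and the control mean (vertical axis, log2 reads) of each differential interval against its distance from the nearest TSS of Cd44 (top) or Itga4 (bottom) in kb, with negative distances upstream; points carry the interval numbers and the yellow bar is the gene body. All 11 Cd44 points are above 0 and all 12 Itga4 points below it, and none is within 20 kb of the start.

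Itga4 (ENSMUSG00000027009.18) covers 77698 bp on the plus strand (chr2:79255426-79333123), with 28 exons in ENSMUST00000099972.4. Its 12 intervals were spread over 250170 bp. Of these, 4 lay upstream, 5 lay in introns and 3 lay past the 3′ end, inside the body of Cerkl, a ceramide kinase-like gene that is transcribed towards Itga4 and overlaps its end. As at Cd44, 0 of the intervals overlapped an exon of any gene and 0 were at the Itga4 promoter; the closest was 20930 bp from the Itga4 TSS and the farthest 167995 bp. The neighbouring table rows were a lost interval of Ube2e3, a ubiquitin-conjugating enzyme gene, 50663 bp before the stretch (difference -0.98), and a gained interval of Itprid2, 234253 bp after it (difference 1.64).

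Interval 2 showed the largest difference at Itga4, from a mean of 96.5 reads in control to 20.6 after MCD, 4.68-fold lower (difference -2.23). By size of the difference it was at rank 6 of the 1022 lost intervals. It lies 165330 bp upstream of the TSS, inside Gm37004, a gene model of GENCODE's TEC class, which is given to transcripts of unsettled status. Interval 1, in the same model and 2464 bp away, had about 2 times as many control reads, 196, and had 98.1 reads after MCD (difference -0.999). These adjacent intervals thus differed by more than 1 log2 unit in how much they lost.

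The other upstream intervals were intergenic and differed in level. Interval 3, 48965 bp before the TSS, went from 85.2 to 42.5 reads (difference -1.001), and 28.8% of lost intervals had a lower control mean. Interval 4, 27279 bp before it, went from 215 to 131 reads (difference -0.71), which was the highest control mean and the smallest change of the 12. Of all lost intervals, 92.5% had a lower control mean than interval 4.

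Inside Itga4 the control means were lower and most of the losses larger. Interval 7, in intron 17, went from 29.3 to 6.45 reads, 4.54-fold lower (difference -2.18), and only 0.489% of lost intervals had a lower MCD mean. Interval 6, in intron 10, went from 32.9 to 8.49 reads (difference -1.95), and interval 5, in intron 4, from 34.6 to 10.1 reads (difference -1.78). These intervals ranked 10, 18 and 35 by size of the difference among lost intervals. Closer to the 3′ end, interval 9 in intron 26, an intron of 409 bp, went from 39.3 to 13.9 reads (difference -1.50). Interval 8, in intron 24, lost less, with 82.3 reads in control and 40.9 after MCD (difference -1.01).

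Past the 3′ end, 3 intervals followed each other with gaps of 895 and 887 bp. They lie 1408, 2217 and 1129 bp from starts of Cerkl transcripts outside the basic set, which is within the 3 kb used for a promoter. Interval 10 went from 38.4 to 14.1 reads (difference -1.44), interval 11 from 59.9 to 20.1 (difference -1.58) and interval 12 from 76.0 to 26.8 (difference -1.50). Although the control means of these 3 differed, the differences lay close together. Soft-masked repeat sequence of the reference covered 70.1% of interval 11 and 93.5% of interval 12, against a median of 10.9% over all lost intervals, and whether reads there could be placed uniquely was not tested.

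**Figure D2:**
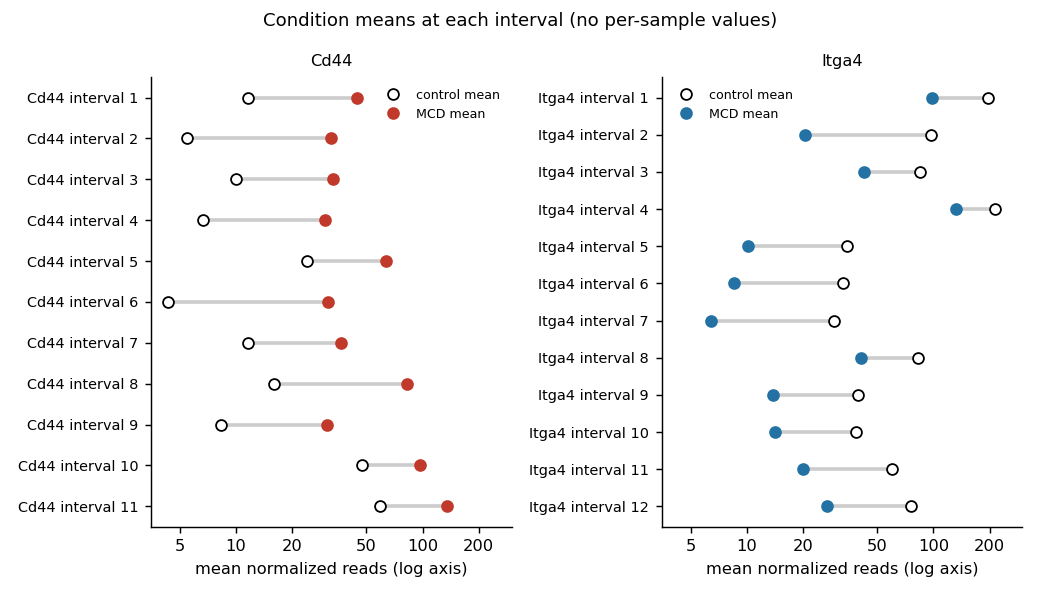
Mean normalized reads of each interval (horizontal log axis) in control (open circles) and after MCD (filled circles) at Cd44 (left) and Itga4 (right); each circle is the authors' mean of 2 libraries, with no error available. MCD circles lie to the right of the control circles in all 11 rows of Cd44 and to the left in all 12 rows of Itga4.

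Seen over the whole gene, the Cd44 intervals moved from a median of 11.6 reads in control (range 4.31 to 59.0) to 36.7 after MCD (range 30.1 to 135), with a median difference of 1.88. Over all gained intervals the medians were 29.2 and 78.6 reads, and the median difference was 1.39. The Itga4 intervals moved from a median of 67.9 reads (range 29.3 to 215) to 20.3 (range 6.45 to 131), with a median difference of -1.50, beside medians of 114 and 57.1 reads and a median difference of -0.97 over all lost intervals. Of the whole table, 73.2% of intervals were gained and 26.8% lost, and these shares stand beside the 11 of 11 and the 12 of 12 as the background of a table from which the members were chosen. With a limit of 1 log2 unit, 11 of the 11 Cd44 intervals were gained by at least that much, against 78.3% of gained intervals and 57.3% of the table. Of the 12 Itga4 intervals, 10 were lost by at least that much, against 46.6% of lost intervals and 12.5% of the table. Part of both counts was fixed by level. No gained interval with a control mean under 4 on the log2 scale differed by less than 1.38, and 8 Cd44 intervals were among these. No lost interval with an MCD mean under 4 differed by less than 1.44, and 5 Itga4 intervals were among these. With 10 reads added to each mean before the log2, the median difference at Cd44 was 1.15, beside 1.10 over all gained intervals, and at Itga4 -1.10, beside -0.85 over all lost intervals.

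The size of a difference in this table went with the level of the interval, and intervals with few reads were present only with large differences. Among gained intervals with a control mean under 4 on the log2 scale, the smallest difference was 1.38 and the median 1.97, while the 8 Cd44 intervals at that level had a median of 2.07. Among gained intervals with a control mean from 4 to 6 the median was 1.34, and the 3 Cd44 intervals there had a median of 1.19. Set against intervals of like level, the Cd44 differences were therefore near the table's medians. For lost intervals with an MCD mean under 4 the median size was 1.78, the same as for the 5 Itga4 intervals there. At MCD means from 4 to 6 the median size was 1.10 over the lost intervals and 1.50 over the 5 Itga4 intervals. Itga4 intervals 2, 11 and 12 lay low in that range, at 4.37, 4.33 and 4.75, and level was not matched within it. At MCD means of 6 or above the median size was 0.77 and, for the 2 Itga4 intervals, 0.85.

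**Figure D3:**
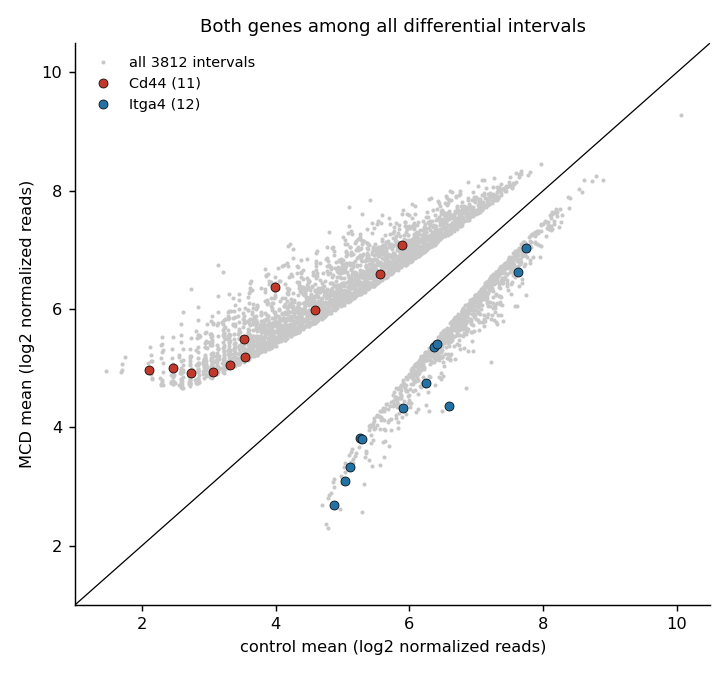
Control mean (horizontal) against MCD mean (vertical), both in log2 normalized reads, for all 3812 differential intervals (grey), with Cd44 in red and Itga4 in blue; the line marks equal means. The empty band along the line holds the intervals that did not pass the authors' threshold, and it is wider at low means, where most Cd44 points and 5 of the Itga4 points lie.

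Across the table, 2613 genes had at least 1 interval; 1912 of them had a single interval and 701 had 2 or more. Only 4 genes had 11 or more. Nfkb1, which encodes the p105/p50 subunit of NF-κB, had 20, all gained. Itga4 came next with 12, all lost, and was followed by Cd44 with 11, all gained, and Cited2, a transcriptional co-regulator gene, with 9 gained and 2 lost. The fifth was Bcl2l11, which encodes the apoptosis activator Bim, with 10 gained. With this assignment Itga4 had the most lost intervals of any gene, and 3 genes had 6 or more. With every transcript that has an Entrez identifier, Itga4 had 6, behind Sgcz with 7. There, 13 genes had more gained intervals than the 7 then left at Cd44. With the starts of all annotated genes, 5 genes had more lost intervals than the 3 left at Itga4. In that setting, 42 genes had more gained intervals than the 3 left at Cd44. A change in 1 direction was common where a gene had several intervals, since 525 of the 701 genes with 2 or more had gained ones alone or lost ones alone. A neighbouring table row within 5 kb was present for 8 of the 11 Cd44 and 7 of the 12 Itga4 intervals, compared with 14.9% of all gained and 8.71% of all lost intervals. Being assigned to a gene with many intervals makes close neighbours likely, so these shares describe how dense the members are.

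The 12 motifs searched were AP-1, CRE (TGACGTCA), the κB site, the PU box, C/EBP (TTGCNNAA), RUNX, the IRF element, STAT (TTCNNNGAA), the E-box (CACGTG), the GC box (GGGCGG), EGR (GCGNGGGCG) and the CArG box. Some share letters, so that a PU box can overlap an IRF element and a GC box an EGR site. A match says that these letters are present in the reference sequence and does not show that a factor was bound. At least 1 motif was found in 8 of the 11 Cd44 and 8 of the 12 Itga4 intervals. None was found in 27.3% of Cd44 and 33.3% of Itga4 intervals, against 16.6% of all gained and 23.6% of all lost intervals.

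AP-1, the site of Jun and Fos family dimers, was present in 3 of the 11 Cd44 and 0 of the 12 Itga4 intervals. Over the table it was present in 45.9% of gained and 1.96% of lost intervals. The 3 matches lay in Cd44 intervals 5, 8 and 11. These had 3 of the 4 highest MCD means of the gene (63.3, 82.3 and 135 reads). They also had 3 of the 4 highest control means (24.1, 15.9 and 59.0 reads), and their differences were 1.39, 2.37 and 1.19. Interval 6, with the largest difference, and interval 10, with the second highest MCD mean, had none. Interval 8 was the only member with a κB site, the motif of NF-κB family proteins, and it held AP-1 at bases 31 to 37 (chr2:102873438-102873444) and the κB site at bases 113 to 122 (chr2:102873520-102873529). A κB site was present in 8.67% of gained and 2.54% of lost intervals, and both motifs together in 2.90% of gained intervals.

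The PU box, the core of sites for the macrophage factor PU.1, was present in 3 Cd44 intervals (3, 6 and 10) and in 4 Itga4 intervals (2, 3, 4 and 10), with 2 copies in Cd44 interval 10 and 2 in Itga4 interval 10. The shares over the table were 28.1% of gained and 52.2% of lost intervals. The 4 Itga4 intervals with a PU box included the 1 with the largest and the 1 with the smallest difference. None of the 5 intervals in Itga4 introns held it. RUNX was found in 4 Cd44 intervals (5, 6, 10 and 11) and in Itga4 interval 5, which had 2 copies on opposite strands, beside 20.8% of gained and 25.1% of lost intervals. Cd44 intervals 5 and 11 held both RUNX and AP-1. In Cd44 interval 5 AP-1 was at bases 150 to 156 and RUNX at 166 to 171. In Cd44 interval 11 AP-1 was at bases 149 to 155 and RUNX at 169 to 174. How many gained intervals of the whole table held both of these motifs was not counted.

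The remaining motifs occurred in single intervals or pairs. C/EBP was found in Cd44 intervals 5 and 9 and Itga4 interval 8, beside 11.3% of gained and 15.2% of lost intervals. STAT was in Cd44 intervals 6 and 11 and Itga4 intervals 5 and 7, beside 6.20% and 5.77%. IRF elements were in Cd44 interval 4 and Itga4 intervals 1 and 10, where the last shares bases with a PU box, beside 2.44% and 3.23%. The GC box in Cd44 interval 4, the CArG box in Cd44 interval 9 and the E-box in Itga4 interval 10 were the only matches to these motifs among the members, and CRE and EGR were found in 0 of the 23. Over the gained and the lost intervals, the GC box was present in 9.75% and 2.45%, the CArG box in 1.08% and 1.37% and the E-box in 3.87% and 5.68%. CRE was present in 1.47% of gained and 0% of lost intervals, and EGR in 1.68% and 0.196%. The median GC content was 46.8% at Cd44 and 46.3% at Itga4 beside 47.8% over the table.

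**Figure D4:**
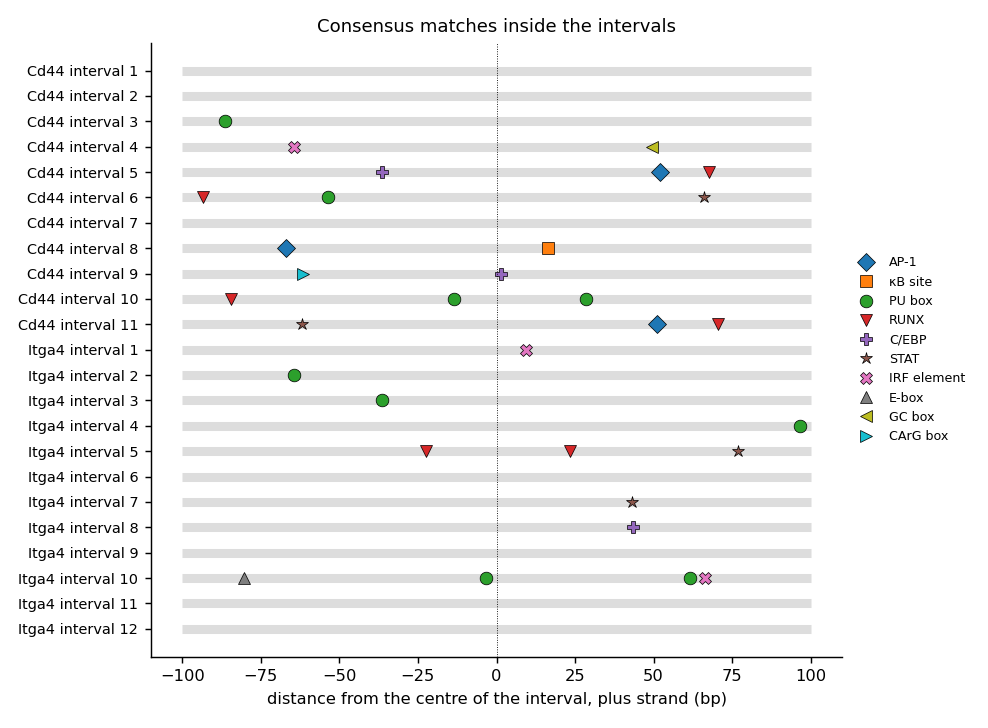
Consensus matches (symbols) inside each 201 bp interval (grey bars), by distance from the interval's centre in bp on the plus strand. AP-1 diamonds are in Cd44 intervals 5, 8 and 11 and in 0 of the 12 Itga4 intervals, while PU box circles are in both genes.

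Other adhesion genes were read from a list of 83 that includes Itga4 and not Cd44, of which 27 had an interval in the table. Apart from Itga4, 25 genes had gained intervals alone, 0 had lost intervals alone and 1, Ank2, had both. Of the 46 intervals of these other genes, 93.5% were gained, against 73.2% of the whole table. That share leaves out the 12 lost intervals of Itga4, and counting them would lower it towards the share of the table. Several of the 46 intervals came from the same genes, Cd47 and Cd9 among them. The gained ones had a median difference of 1.38, beside 1.39 over all gained intervals. Over all 2613 genes with a row, 68.0% had gained intervals alone, 25.3% lost ones alone and 6.74% both. With this assignment Itga4 was the only gene of the list with lost intervals and no gained one. It had been chosen with earlier results of these data known. The gained interval of Ank2 lay 170252 bp from its TSS, inside the body of Camk2d, while the lost ones lay inside Ank2. That a gene had no row means that no interval assigned to it passed the authors' comparison, not that its accessibility did not differ. The share of all annotated genes with a row was not computed. How usual 27 of 83 and the group counts below are is therefore unknown.

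Among the 18 integrin α chains, 4 others had intervals, all of them gained. Itga5, the α5 chain of the fibronectin receptor, had differences of 1.16 and 1.13. Itgax, the CD11c chain, had 1 interval 84 bp upstream of its TSS (difference 1.10) and 2 others, at 1.50 and 1.41. Itgav, the αv chain, had 1 (1.54) and Itga11, a collagen-binding chain, 1 (2.19). Of the 8 β chains, Itgb2, the partner of the leukocyte chains, had 1 gained interval (1.06), and neither Itgb1 nor Itgb7, which encode the partners of α4, had a row. Of 5 genes for α4 ligands only Spp1, which encodes osteopontin, also a ligand of CD44, had intervals, with differences of 2.75 and 1.39.

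Several genes whose products act with CD44 were also listed. Of 7 genes for ezrin-radixin-moesin proteins and other partners of its cytoplasmic tail, 5 had gained intervals alone. Ezr had differences of 2.04 and 0.80, Msn of 0.96 and Rdx of 1.70. Ank1 (2.20) and Ank3 (0.99) were the other 2, while Ank2, an ankyrin gene, had 1 gained interval (1.32) and 3 lost ones (-0.70, -0.91 and -1.01). Among 12 genes for hyaluronan turnover and other CD44 ligands, Has1, a hyaluronan synthase, had 2 gained intervals (1.06 and 0.99), and Cemip (1.59) and Cemip2 (1.45), which take part in hyaluronan breakdown, had 1 each. Of 4 proteases that can cut CD44, Adam17 (1.38) and Mmp9 (1.56) had gained intervals. The Mmp9 interval was 282 bp upstream of the nearest basic-set TSS, yet inside the annotated gene body. The 4 other hyaluronan receptors on the list, Hmmr, Lyve1, Stab1 and Stab2, had none.

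Of 14 genes that activate integrins or link them to actin, 5 had gained intervals alone. They were Apbb1ip, which encodes the talin recruiter RIAM (2.06 and 1.80), Pxn, paxillin (1.88), Fermt2, a kindlin (1.63), Vcl, vinculin (1.29), and Tln2, a talin (1.03). Of 12 other genes that take part in leukocyte adhesion, 4 had gained intervals alone. The most were at Cd47 and Cd9, with 6 each, between 0.93 and 1.89 and between 0.76 and 1.50, and Selplg (1.61) and Jam2 (1.55) had 1 each. Some of these intervals were far from the gene they were assigned to. The Tln2 interval was 118041 bp from the TSS, inside the lincRNA gene Gm19299, and 1 Cd47 interval was 196747 bp from the TSS.

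**Figure D5:**
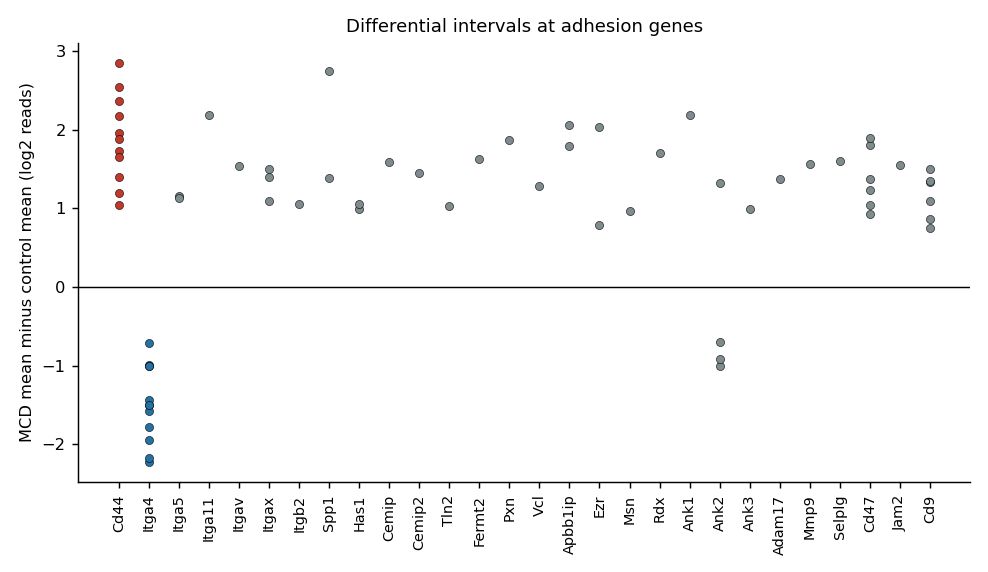
Difference between the MCD and the control mean (vertical axis, log2 reads) of every differential interval at Cd44 (red), Itga4 (blue) and the 26 other adhesion genes with an interval (grey), 1 point per interval. Points below 0 are at Itga4 and Ank2 alone.

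The number of members depended on which start sites were allowed to compete for an interval. When every M21 transcript with an Entrez identifier was used, internal starts of Slc1a2 took the 4 intervals nearest to the 3′ end of Cd44, which left 7, and internal starts of Cerkl took the 6 Itga4 intervals numbered 7 to 12, which left 6. When the starts of all annotated genes competed, small RNA genes and pseudogenes included, 3 were left at Cd44 and 3 at Itga4. The direction of each interval is a property of its reads and did not depend on this choice. Inside the gene bodies themselves, whatever the nearest TSS, there were 7 gained and 0 lost intervals in Cd44 and 5 lost and 0 gained in Itga4.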

How the data were processed

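Control and MCD-treated RAW macrophages were compared by ATAC-seq with 2 libraries each. The study's methods give alignment to GRCm38 (mm10) with Bowtie2, removal of duplicates with Picard, peak calling with MACS2 and a comparison in Diffbind; the submitters' processing notes name Bowtie2 2.4.4, cutadapt 2.6 and MACS3 3.0.0. The normalization of reads, any shift for the Tn5 offset, and whether peaks were called per library are not given in the sources used here. In the deposited table, the values used are log2 means of normalized reads per condition, whose headers O and MS match the descriptions of the control and MCD libraries. The authors' p-value and FDR columns and their Fold are their comparison and were not used as results; the FDR was read only to see that all 3812 rows are at 0.05 or less. Another scaling or filter on the libraries, and any test between conditions, could not be run on means.

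Differences are the MCD mean minus the control mean. Rows were assigned to the nearest TSS of GENCODE M21 transcripts of the basic set with an Entrez identifier. The basic set was chosen after both assignments had been seen. Annotation and sequence are of GRCm38.p6, and 14 of 14 transcript sequences of both genes equalled the genome. Sequences were read with pysam 0.24.0 and samtools 1.23.1 in Python 3.11.15, with numpy 2.4.6 and pandas 2.3.3. The TSS search and the motif search were tested on simulated data. Every member, every listed adhesion gene with a row, the neighbouring genes and the 5 genes with the most rows are named. The members, the adhesion list and the motifs were chosen with earlier results of these data known. Alternatives were other gene assignments, limits on distance, difference and level, pseudocounts on the reads, and other forms of the motifs.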

Additional observations from a re-analysis of the deposited data

How the results depend on the processing

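With the TSS of all annotated genes, small RNAs and pseudogenes included, the gained intervals at Cd44 went from 11 to 3 and the lost ones at Itga4 from 12 to 3. With every transcript that has an Entrez identifier they were 7 and 6, and inside the gene body 7 and 5; both of these alternatives were chosen after seeing the data. By construction these settings let other start sites compete or leave out flanking intervals. Lost intervals at Cd44 and gained ones at Itga4 were 0 under each assignment and limit tried. The limits could only remove rows, and no row of another gene lay inside either stretch. These 0 counts are therefore no test of the direction. The median difference at Cd44 went from 1.88 to 1.15 when 10 was added to the reads before taking the log2, which shrinks differences at low means, and that at Itga4 from -1.50 to -1.10. With 1 mismatch allowed in AP-1, the intervals with a match were 6 at Cd44 instead of 3 and 4 at Itga4 instead of 0, beside 81.8% of all gained and 39.9% of all lost intervals. With the 8-letter PU.1 consensus (GAGGAAGT) in place of the PU box they were 0 at Cd44 instead of 3 and 0 at Itga4 instead of 4, beside 4.66% of all gained and 15.9% of all lost intervals. No paired analysis was possible because each condition was given as 1 mean, and for the same reason no library could be left out. What depth limits is unknown, and intervals under the authors' threshold were not analysed here.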
